A study of Drosophila melanogaster with 12 samples.

Results

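The transcripts described here are 78 probe sets that read high in wild-type hindgut and Malpighian tubules of the Drosophila larva. They read lower in control wing discs, and lower than wild type when the same organs come from MiT mutants. They were chosen by their measured values. A probe set entered when its wild-type hindgut-tubule mean was at least 7 on the deposited log2 scale and at least 3 above the control disc mean. Its mutant mean also had to lie at least 1 below the wild-type mean, with all 3 mutant arrays below all 3 wild-type arrays, and V-ATPase genes were left out. Of 18769 probe sets without the array's own controls, 748 met the conditions on level and tissue and are called hindgut-tubule specific here. Of these, 78 met the conditions on the mutant as well, 37 were higher in the mutant by the mirrored conditions, and 630 met neither, beside 3 V-ATPase probe sets. The 78 members carry 70 named genes, 4 probe sets assigned to several genes and 4 with no gene name.

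The series used 12 Affymetrix Drosophila_2 arrays, 3 for each of 4 groups of L3 larval tissue from animals raised on normal food at 25 °C. Wild-type hindgut-tubule samples were set against those of animals carrying MiTTZ2 over the deficiency Df(4)TZ, titled EMSTZ2 in the labels. Wing discs with the nub-Gal4 driver alone, called control discs here, were set against discs with nub-Gal4 and UAS-MiT, called transgene discs. nub-Gal4 drives in the wing-forming region of the disc and not in every disc cell. The deficiency removes 1 copy of other genes beside Mitf. The labels do not give the strain background of the wild-type or mutant animals, so the mutation and the background cannot be told apart. They do not say whether replicates came from separate animals or cultures, so p-values measure the spread between these samples only, which may be technical.

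MiT, called Mitf in the files, is the Drosophila gene of the MITF/TFE family, basic helix-loop-helix leucine zipper factors known for activating lysosomal, autophagy and V-ATPase genes. The Malpighian tubule is the fly's kidney: a proton pump in its apical membrane drives secretion of ions and water, and the hindgut takes part of them back. Tubules also clear toxins through cytochrome P450s, glutathione transferases and efflux pumps, and they make antimicrobial peptides.

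The Mitf probe set read 7.05, 6.55 and 6.16 on the wild-type hindgut-tubule arrays and 4.54, 4.19 and 4.52 on the mutant ones, without overlap. It read between 7.91 and 8.15 on the control discs and between 8.02 and 8.21 on the transgene discs, so it gives no check of the transgene. Mutant array 2 stood apart, with Pearson correlations of 0.948 and 0.955 with the other mutant arrays over all probe sets, against 0.981 to 0.995 between other replicates of a hindgut-tubule group. Without it 119 probe sets met the rule, among them 76 of the 78. Wild-type array 3 stood apart on antimicrobial peptide genes, as described with the immune members. The white gene (w), which encodes a pigment transporter subunit and is mutated in many laboratory stocks, read 7.39, 6.47 and 7.85 on the wild-type and 4.33, 3.72 and 3.94 on the mutant hindgut-tubule arrays. Whether a difference in stock took part in any fall was not tested.

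The members lay lower in the mutant by a median of 1.95 on the log2 scale, a 3.86-fold difference, with quartiles of 1.18 and 3.36 and a range from 1.02 to 9.31. Since the rule used these values, they are a description and carry no test. A filter on dim signal (log2 of at least 4 on at least 3 arrays) passed 8678 probe sets. Over all of these the median difference was -0.003, and over the 748 hindgut-tubule specific ones it was -0.18. Over the 667 specific ones left after the rule took out those lower in the mutant, it was -0.07. A fall of at least 1 without overlap of the arrays occurred in 3.27% of all tested probe sets and in 10.8% of the hindgut-tubule specific ones, V-ATPase genes included. A rise of that kind occurred in 4.95% of the specific ones. The specific ones were chosen for a wild-type mean of at least 7 on these arrays, while a probe set near background cannot fall by 1. These shares therefore do not compare like with like, and no share matched for level was computed. In bulk tissue, fewer cells of a type and less RNA per cell cannot be told apart.

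The members' median level was 9.80, 9.92 and 10.26 on the 3 wild-type arrays and 7.22, 7.59 and 7.63 on the mutant arrays. The other specific probe sets, from which the rule had removed those lower in the mutant, had medians between 10.02 and 10.27 on all 6 of those arrays. On the control discs the members' medians were between 2.80 and 3.04. Single members had control disc means from 2.12 to 9.27, so not all of them were low there. Most members were lowered rather than lost. In 34 of the 78 the mutant mean was still at least 8, and in 12 it was under 4, a level not told apart from background here.

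**Figure D1:**
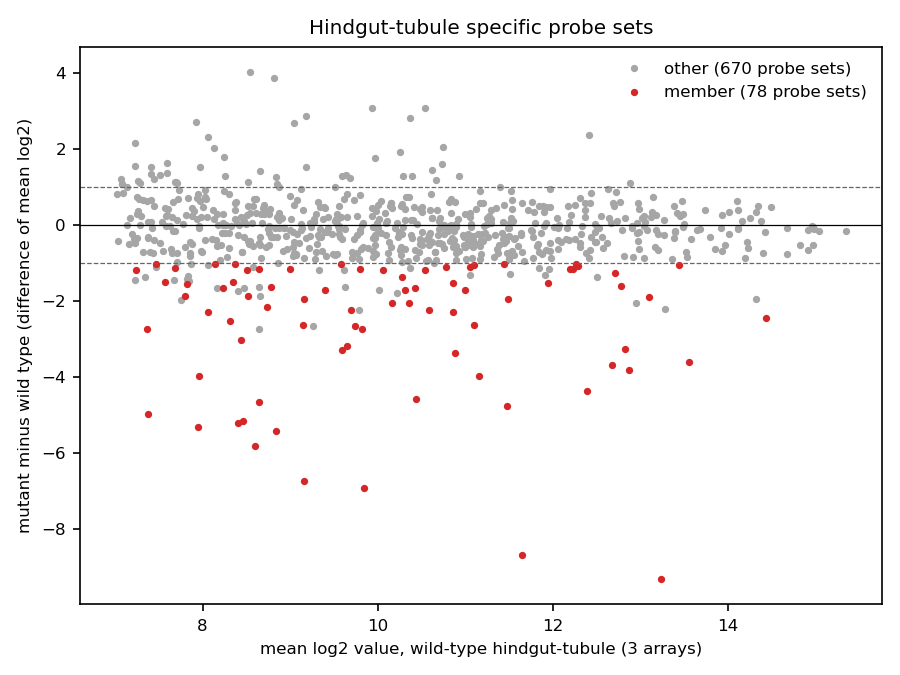
Difference between the mutant and wild-type hindgut-tubule means (log2, y axis) against the wild-type mean (log2, x axis) for the 748 hindgut-tubule specific probe sets, with the 78 members in red and dashed lines at 1 and -1. The members reach from falls of 1.02 to 9.31, while most other specific probe sets lie between the lines.

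In 8 members the mutant hindgut-tubule mean was within 1 of the control disc mean, and in 7 of these both means were under a log2 value of 4, where levels are not told apart. In CG15201, AttA/AttB and CG31775 the mutant mean was below the disc mean. With the 12 mutant means under 4 set at that level, the largest fall is at least 9.24 and the median stays at 1.95. Falls of 3 or more were seen in 24 members, of 2 to 3 in 14, and under 2 in 40.

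**Figure D2:**
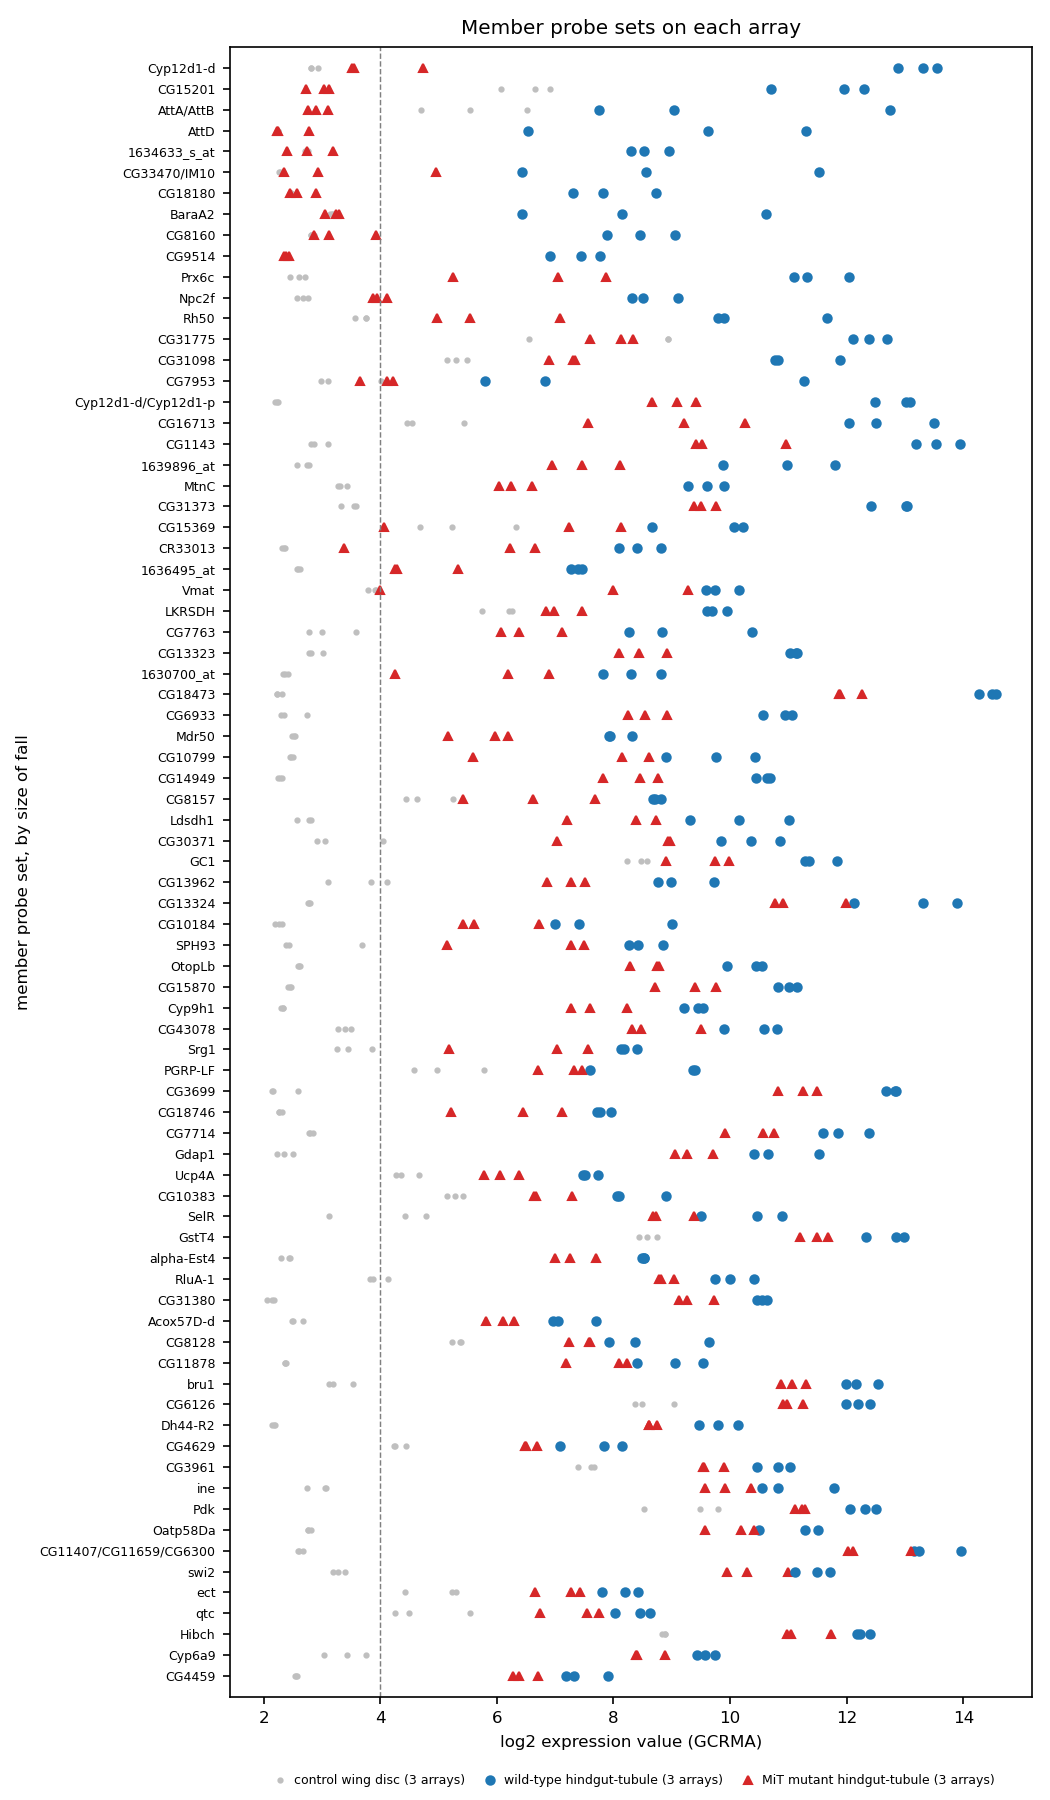
Log2 expression value (x axis) of each of the 78 member probe sets (y axis, ordered by the size of the fall) on the 3 wild-type hindgut-tubule arrays (blue), the 3 mutant ones (red) and the 3 control disc arrays (grey), with a dashed line at a log2 value of 4. Every red triangle lies left of the blue points of its line, as the rule requires, and the space between them shrinks from Cyp12d1-d at the top to CG4459 at the bottom.

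Members with a known part in detoxification and redox chemistry numbered 8, with falls from 1.02 to 9.31 and a median of 1.53. Cyp12d1-d, a mitochondrial cytochrome P450 known for its induction by xenobiotics, read 13.54, 12.88 and 13.31 on the wild-type arrays and 3.51, 3.55 and 4.73 on the mutant arrays. Its mean fell at least 606-fold, to the background of the array. Cyp12d1-p is a nearly identical neighbouring copy, and a probe set shared by both copies read 13.09, 12.49 and 13.02 in wild type against 8.66, 9.10 and 9.42 in the mutant. That shared probe set stayed well above background on all 3 mutant arrays, with a fall of 3.81. A shared probe set cannot separate the signal of near-identical genes.

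Prx6c, a peroxiredoxin of the family that reduces peroxides and named Prx2540-2 in the files, read 11.10, 12.04 and 11.31 in wild type and 5.24, 7.87 and 7.04 in the mutant. It was 27.2-fold lower, with mutant array 1 below the other mutant arrays by more than 1, and 16.3-fold lower without that array. MtnC, a metal-binding metallothionein, read 9.60, 9.89 and 9.28 against 6.04, 6.23 and 6.60. The remaining members with such roles moved less. The theta-class glutathione transferase GstT4 read 12.71 ± 0.35 (SD, n = 3) in wild type and 11.46 ± 0.24 in the mutant, and the carboxylesterase alpha-Est4 read 8.51 ± 0.02 and 7.32 ± 0.36. SelR, a methionine sulfoxide reductase, read 10.28 ± 0.71 and 8.93 ± 0.39. The cytochrome P450s Cyp9h1 and Cyp6a9 lay 1.70 and 1.02 below wild type.

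Counts over the whole families went in both directions. Of 56 tested genes named as cytochrome P450s, a list that by its naming also takes in the cyclophilin Cyp1, limma called 5 lower and 16 higher in the mutant at an adjusted p under 0.05, 3 of the lower ones being members, which the rule made low. The background was 7.21% of all tested probe sets lower and 8.09% higher. Since spread in hindgut-tubule samples exceeded that in discs, the fit to the 6 hindgut-tubule arrays alone is given beside it: it called 3 lower and 8 higher in that family, over a background of 1.92% lower and 2.1% higher. Of the 53 tested genes of that list that are no members, limma called 18 over 12 arrays and 8 over 6. Cyp6a20, the gene next to Cyp6a9 on chromosome 2R, lay 2.17 above wild type while Cyp6a9 lay 1.02 below it. Of 26 tested glutathione transferases, 3 were called lower (GstT4 among them) and 8 higher, against 2 and 2 in the fit to 6 arrays. The rule made GstT4 low, and of the other 25 limma called 10 over 12 arrays and 3 over 6. Of 10 tested antioxidant enzyme genes, 2 were called lower, Prx6c and Prx3, and 2 higher, Prx2 and Trxr1. The fit to 6 arrays called 1 lower, Prx6c, and 1 higher. The rule made Prx6c low, and of the other 9 limma called 3 over 12 arrays and 1 over 6.

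Transport proteins made up 9 members, with falls from 1.04 to 4.66 and a median of 1.95. Npc2f, of the Niemann-Pick type C2 family of small secreted lipid-binding proteins, read 9.10, 8.31 and 8.51 in wild type and 3.95, 3.87 and 4.12 in the mutant. Its fall was at least 24.9-fold, and the mutant arrays lay at the edge of background. The rule made Npc2f low, and of the other 5 tested genes of that family limma called 0, with 0 at an unadjusted p under 0.05, over 12 arrays as over 6. Rh50, a Rhesus-type ammonium transport protein, read 9.89, 11.66 and 9.79 against 4.97, 7.08 and 5.55. Array 2 was high within both genotypes, and the groups stayed apart by more than 2.

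Among 26 tested genes of renal ion and water transport, 2 were called lower (Rh50 and nrv1, a sodium pump beta subunit) and 2 higher. The fit to 6 arrays called 2 lower and 1 higher. The rule made Rh50 low, and of the other 25 limma called 3 over 12 arrays and 2 over 6. Those not called included the water channels Drip and Prip, whose mutant means lay 0.10 and 0.22 above wild type, and the potassium channel Irk2, at -0.13. Mdr50, an ABC efflux pump, read 7.94, 8.31 and 7.93 in wild type and 6.19, 5.96 and 5.17 in the mutant, a 4.87-fold fall. Oatp58Da, an organic anion transporter, read 11.52, 10.49 and 11.28 against 10.19, 9.57 and 10.40, a gap of 0.09 between the nearest arrays. Its neighbour Oatp58Db lay 0.72 below wild type and was no member. Of 11 tested organic anion and multidrug transporters, limma called 3 lower over 12 arrays, these 3 genes, and 1 higher. Fitted to the 6 arrays it called 1 lower, Mdr50, and 0 higher, with 3 and 1 at an unadjusted p under 0.05. The rule made Mdr50 and Oatp58Da low, and of the other 9 limma called 2 over 12 arrays and 0 over 6. The background shares are those given with the cytochrome P450s.

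The other transport members were 2 mitochondrial carriers, a proton channel, a vesicular transporter and a sodium-coupled transporter. GC1, a mitochondrial glutamate carrier, lay 1.95 lower and Ucp4A, of the uncoupling protein family, 1.50 lower. OtopLb, an otopetrin-like proton channel, lay 1.71 lower. The sodium-coupled transporter ine, whose loss is known to disturb water balance in the fly, read 10.82, 11.79 and 10.55 against 9.91, 10.37 and 9.57. Vmat, which loads monoamines into vesicles, read 9.59, 9.73 and 10.15 in wild type and 9.27, 3.99 and 8.0 in the mutant. Its fall of 2.74 rested largely on mutant array 2, and without that array it was 1.19.

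Immune genes gave some of the largest falls and some of the widest wild-type spreads. AttD, an attacin, read 9.62, 6.54 and 11.31 on the wild-type arrays and 2.24, 2.78 and 2.25 on the mutant arrays. The probe set shared by AttA and AttB read 9.04, 7.76 and 12.74 against 2.77, 3.10 and 2.90. The baramicin gene BaraA2, listed as IM10 in the files, read 8.15, 6.44 and 10.62 against 3.24, 3.05 and 3.29. In each of these, wild-type array 3 was the highest and array 2 the lowest, more than 4 apart on the log2 scale, and the mutant means were under 4. The falls were at least 35.7-fold for AttD, 57.5-fold for AttA/AttB and 21.1-fold for BaraA2.

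A probe set assigned to CG33470 and IM10, copies of the same family, ran the same way, with 8.55, 6.43 and 11.53 against 2.35, 2.92 and 4.95. PGRP-LF, a membrane protein of the peptidoglycan recognition family that dampens immune signalling, read 9.36, 7.60 and 9.40 against 6.70, 7.45 and 7.32. SPH93, a serine protease homologue whose probe set also carries the symbol RSG7 in the files, read 8.42, 8.27 and 8.85 against 5.15, 7.28 and 7.50. Both groups of arrays were closer in these members, with falls of 1.63 and 1.87.

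Wild-type array 3 carried antimicrobial peptide signal that the other wild-type arrays lacked. Of 20 antimicrobial peptide genes on the array, 14 read at least 4 there, against 8 on each of the other wild-type arrays and 5 or 6 on the mutant arrays. AttC, an attacin, read 10.98 on wild-type array 3 and 2.13 on both other wild-type arrays, and the cecropin gene CecC read 9.22 there and 2.86 and 2.79 on the others. Without that array the falls were at least 16.9-fold for AttD, 9.79-fold for BaraA2 and 21.1-fold for AttA/AttB. AttA/AttB then missed the condition on the tissue difference at 2.81. The part of that array's immune signal in the wild-type means was not tested further.

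Of the other antimicrobial peptide genes, some overlapped between genotypes and some did not. Drs, which encodes drosomycin, read 10.75, 9.66 and 12.75 in wild type and 10, 9.75 and 9.46 in the mutant. Mtk, which encodes metchnikowin, read 11.49, 11.43 and 12.83 against 12.13, 7.55 and 12.16. Of 9 tested genes in that list, 2 are the members AttD and BaraA2, which the rule made low. Of the other 7 limma called 0, with 1 at an unadjusted p under 0.05, over 12 arrays as over 6. DptB, too dim to be tested, read 3.88, 2.71 and 10.35 in wild type and 2.27, 2.22 and 2.24 in the mutant. Except on wild-type array 3 these values were under 4, where levels are not told apart, so their lack of overlap says little. The probe set of AttA alone read 5.33, 4.24 and 10.32 in wild type and 2.50, 2.42 and 2.68 in the mutant (limma adjusted p = 0.0551, and 0.235 over 6 arrays).

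**Figure D3:**
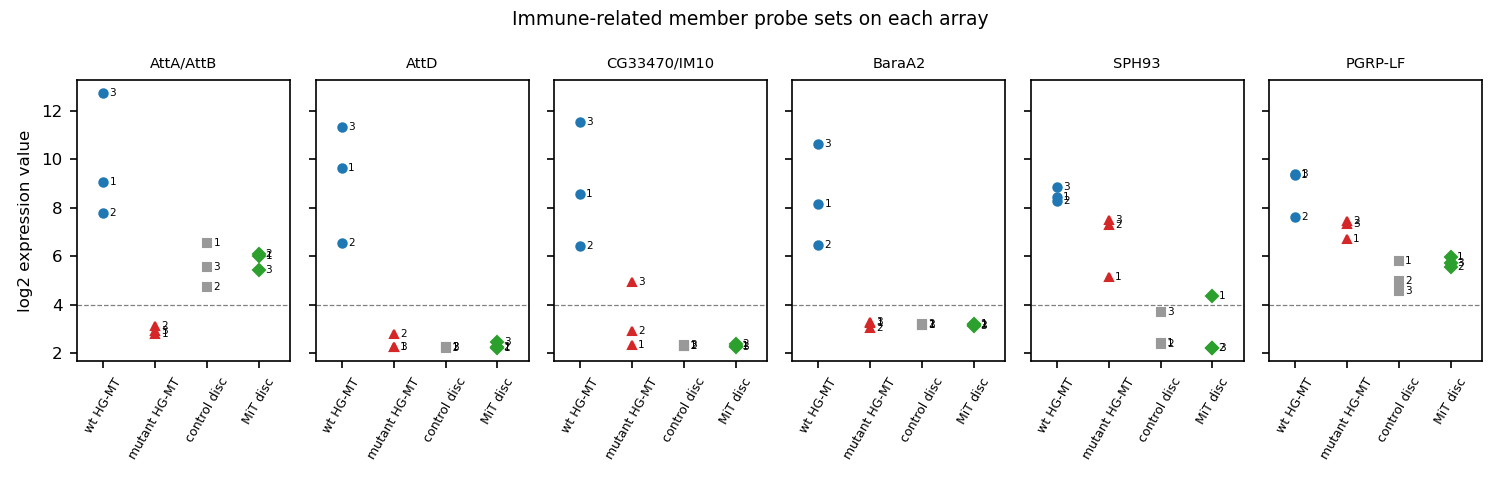
Log2 expression value (y axis) of 6 immune-related member probe sets on the 3 arrays of each group (x axis), each point labelled with its array number and a dashed line at a log2 value of 4. Wild-type array 3 is highest and array 2 lowest for AttA/AttB, AttD, CG33470/IM10 and BaraA2, and the mutant arrays of AttD and BaraA2 lie under the line.

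Metabolic enzymes made up 6 members, with falls from 1.02 to 2.65 and a median of 1.35. LKRSDH, which carries out the first steps of lysine breakdown, read 9.95, 9.68 and 9.60 in wild type and 6.99, 6.84 and 7.46 in the mutant. Ldsdh1, a dehydrogenase of lipid droplets, lay 2.06 lower, and Gdap1, a protein of the mitochondrial outer membrane in mammals, lay 1.52 lower. Acox57D-d, a peroxisomal acyl-CoA oxidase, lay 1.17 lower, while its neighbour Acox57D-p differed by -0.07. Pdk, the kinase that inhibits pyruvate dehydrogenase, read 12.29 ± 0.22 and 11.21 ± 0.08, and Hibch, of valine breakdown, read 12.27 ± 0.11 and 11.25 ± 0.41.

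A further 3 members had roles in signalling or RNA. Dh44-R2, a receptor for the diuretic hormone DH44, read 10.13, 9.47 and 9.80 in wild type and 8.74, 8.61 and 8.62 in the mutant. A separate probe set of that gene went the other way, from a mean of 7.41 to 8.08, so the direction for Dh44-R2 is uncertain. bru1, an RNA-binding translational repressor, lay 1.15 lower and the pseudouridine synthase homologue RluA-1 lay 1.18 lower. For 8 member genes the arrays hold 11 other probe sets, of which 6 passed the filter on dim signal, 5 with a lower mean in the mutant and 1, that of Dh44-R2, with a higher one. The falls of the others were 1.64 for Vmat, 0.99 for Pdk, 0.83 for SelR, 0.72 for bru1 and 0.13 for CG43078.

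Members to which no role is given here numbered 48, with a median fall of 2.24. CG15201, on chromosome X, read 12.29, 10.70 and 11.95 in wild type and 3.12, 2.72 and 3.03 in the mutant, a fall of at least 200.5-fold. On the control discs it read 6.07, 6.91 and 6.66, so its mutant hindgut-tubule level was under that of the disc. CG18180 read 7.82, 7.30 and 8.73 against 2.46, 2.57 and 2.90. CG8160 read 8.45, 7.88 and 9.06 against 2.86, 3.92 and 3.13. CG9514 read 7.44, 7.78 and 6.91 against 2.39, 2.43 and 2.36. In these 3 genes every mutant array was under background, and the falls were at least 15.5-fold, 22.1-fold and 10.4-fold. An unnamed probe set, 1634633_s_at, read 8.95, 8.30 and 8.53 against 2.74, 2.40 and 3.18.

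Other members without a role stayed high in the mutant. CG18473 read 14.55, 14.49 and 14.26 in wild type and 11.87, 12.26 and 11.88 in the mutant, a 5.40-fold fall that left it far above the control disc level of 2.26. CG1143 read 13.54, 13.95 and 13.19 against 9.42, 10.96 and 9.52. CG13324 read 12.12, 13.88 and 13.31 against 10.92, 11.98 and 10.77. The probe set shared by CG11407, CG11659 and CG6300 read 13.15, 13.95 and 13.24 against 12.10, 13.10 and 12.03, with array 2 the highest in both genotypes and a gap of 0.05 between them. CR33013, annotated as a pseudogene in RefSeq, lay 3.03 lower, and 2.01 lower without mutant array 2.

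The members nearest to each threshold were close to probe sets just outside it. For the fall, CG4459 and Cyp6a9 were inside at 1.02 each, and CG10621 and Mipp1 were outside at 0.99 and 0.98. For the wild-type level, Acox57D-d at 7.24 and the unnamed 1636495_at at 7.37 were inside, with CG31248 at 6.94 and CG17190 at 6.93 outside. For the tissue difference, Pdk at 3.03 and GC1 at 3.06 were inside, with lectin-24Db at 2.83 and CG6023 at 2.80 outside. For the gap between the arrays, the set shared by CG11407, CG11659 and CG6300 and that of Oatp58Da were inside, with CG34427 at -0.05 and Alp6 at -0.06 outside. The 3 V-ATPase probe sets that met the rule were Vha36-1 (14.33 to 12.39), Vha100-2 (12.96 to 10.90) and Vha44 (13.29 to 11.09).

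Markers of the dissected organs were compared separately. None of 20 tested Malpighian tubule markers was a member, limma called 1 lower and 2 higher (0 and 1 over 6 arrays, with 2 and 2 at an unadjusted p under 0.05), and their median difference was 0.02. Summed on the linear scale, the 20 markers gave log2 totals from 16.07 to 16.35 in wild type and from 16.08 to 16.38 in the mutant. Uro, urate oxidase of the tubule, read 14.11 ± 0.78 and 14.51 ± 0.44. Of 10 tested hindgut markers none was a member, and limma called 1 lower and 2 higher (0 and 0 over 6 arrays, with 1 and 2 at an unadjusted p under 0.05). Only 4 of the hindgut and 13 of the tubule markers were hindgut-tubule specific, so the rest could not be members. The hindgut markers were summed to log2 12.78 to 13.49 in wild type and 13.30 to 13.42 in the mutant. On control discs they gave 13.49 to 13.69, so their sum did not mark the hindgut against the disc. Midgut markers were summed to log2 12.87 to 13.35 in wild type and 13.85 to 14.38 in the mutant, with 5 to 8 of 36 markers at a log2 value of at least 4 on these 6 arrays. LysX, a midgut lysozyme gene that read 12.88 in wild type and 13.99 in the mutant on average, made up most of those sums. Muscle markers, 14 in number, were summed to 16.34 to 16.47 in wild type and 16.58 to 17.17 in the mutant, with 4 called higher over 12 arrays, 7 with the replicate number as a block, and 0 over 6 arrays, where 5 reached an unadjusted p under 0.05 by limma. The parts of midgut and muscle in the members' levels were not tested.

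Fat body transcripts were present in the hindgut-tubule samples and varied between arrays. The linear signals of 10 fat body markers, the larval serum proteins among them, summed to log2 16.23, 17.31 and 16.69 on the wild-type arrays and 15.63, 17.22 and 17.09 on the mutant arrays. Of these markers 7 lay at least 1 lower on mutant array 1 than on both other mutant arrays, as did 8 members (10.3%) and 1.28% of all tested probe sets. No such share was computed for the other hindgut-tubule specific probe sets. The 8 members were Prx6c, CG16713, CG15369, CG10799, CG8157, CG30371, SPH93 and Srg1. On the wild-type arrays the fat body sum was lowest on array 1 and highest on array 2. Prx6c, CG15369 and CG30371 ran in that order there, while CG16713, CG10799, CG8157, SPH93 and Srg1 did not. Without mutant array 1 the falls of these 8 members were smaller, which their choice by that array made certain. A fall of 3.17 became 1.97 in CG15369, 1.87 became 1.13 in SPH93 and 1.64 became 0.94 in Srg1. The part of fat body RNA in the members' falls was otherwise not tested.

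**Figure D4:**
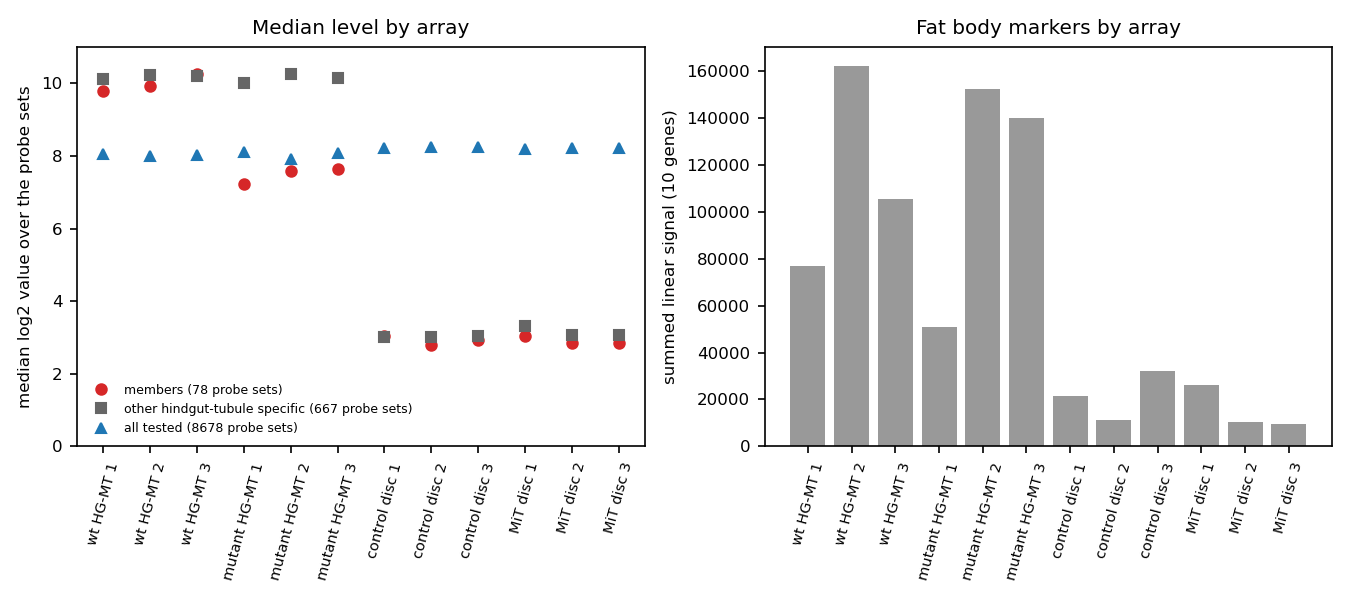
Left, median log2 value (y axis) on each of the 12 arrays for the members, the other hindgut-tubule specific probe sets and all tested probe sets. Right, summed linear signal of 10 fat body markers on the same arrays, highest on wild-type array 2 and lowest of the hindgut-tubule arrays on mutant array 1.

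Positions in the genome were taken from the RefSeq gene order. Of 70 member genes, 21 (30%) lie on chromosome 2R, 18 on 3R, 13 on 2L, 10 on 3L, 8 on X and 0 on chromosome 4, which carries Mitf. Chromosome 2R holds 22.1% of the other hindgut-tubule specific genes and 20.6% of all tested genes. There were 6 members that lie next to another member: CG13323 and CG13324, CG8157 and CG8160, and CG14949 and CG1143. A hindgut-tubule specific gene stood next to 30.4% of 69 placed members and 28.0% of 635 other specific genes. Of 17 specific neighbours that were no members, 16 lay within 1 of wild type and 1, Cyp6a20, was higher. Leaving out the members removed most neighbours that could lie lower, so this count cannot show whether falls extend to adjacent genes.

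The wing disc comparison asks whether added MiT raises transcripts that were lower without it, and it uses arrays of another tissue. The control disc arrays also entered the choice of the members, through the tissue difference. Over the 12 arrays limma called 7.13% of tested probe sets higher and 5.27% lower in transgene discs. Of the 78 members 5 were called higher (6.41%) and 2 lower (2.56%), and 10 and 3 reached an unadjusted p under 0.05. Of the 667 other specific probe sets, 90 were higher (13.5%) and 14 lower (2.10%). Among the members the median change was 0.003, against -0.03 over all tested probe sets. The fit to the 6 disc arrays called 10 members higher (12.8%) and 2 lower, over a background of 13.9% and 16.1%.

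For most members the disc had no measurable level to lower. Of the 78, 54 had fewer than 3 of 6 disc arrays at a log2 value of 4, and 44 had none, so a fall could not be seen in them. A count chosen after the data were seen took only the 22 members whose mean over all 6 disc arrays was at least 4. Of these, limma called 4 higher (18.2%) and 2 lower (9.09%) over 12 arrays, against 7.37% and 5.69% of all tested probe sets with such a mean. Over the 6 disc arrays it called 7 higher (31.8%) and 2 lower (9.09%), against 14.6% and 17.5%. No test was made of these shares. None was computed for the other hindgut-tubule specific probe sets with such a mean, the set most like these members. CG31098 gave the largest rise among the members. It read 5.30, 5.50 and 5.14 on control discs and 10.08, 10.32 and 10.47 on transgene discs, a log2 change of 4.98 (SE 0.28, limma adjusted p = 2.54e-06). Its hindgut-tubule arrays read 10.83, 11.89 and 10.77 in wild type and 6.89, 7.33 and 7.31 in the mutant. Every transgene disc lay below every wild-type hindgut-tubule array of that probe set and above every mutant one.

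GstT4 read 8.44, 8.57 and 8.75 on control discs and 10.70, 10.43 and 10.25 on transgene discs, a change of 1.88 (SE 0.20, limma adjusted p = 0.000193). CG3961, for which RefSeq lists the synonym ACSL1, a name of long-chain acyl-CoA synthetases, read 7.40, 7.61 and 7.66 against 9.06, 8.97 and 9.14. That change was 1.50 (SE 0.16, limma adjusted p = 0.000204). In these genes and in CG31098 all 3 transgene discs lay above all 3 control discs. CG10383 rose by 0.93 (SE 0.24, limma adjusted p = 0.0309), with adjusted p from 0.00282 to 0.111 over the alternatives. The call on Gdap1, 1.29 higher (SE 0.27, limma adjusted p = 0.0121, up to 0.0541), rests on means of 2.36 and 3.65, both under background.

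The 2 members called lower moved the same way in both comparisons. LKRSDH read 5.74, 6.20 and 6.26 on control discs and 4.53, 4.79 and 5.33 on transgene discs, a change of -1.18 (SE 0.24, limma adjusted p = 0.00925). ect read 5.22, 4.43 and 5.29 against 3.84, 3.80 and 4.20, a change of -1.03 (SE 0.28, limma adjusted p = 0.0374), with adjusted p from 0.0139 to 0.131 over the alternatives. The transgene disc mean of ect, 3.95, was under a log2 value of 4, so the size of its change is uncertain. Several larger changes were not called. CG31775 read 8.94, 6.56 and 8.94 on control discs and 7.59, 4.10 and 3.31 on transgene discs, so the groups overlapped (change -3.15, limma adjusted p = 0.068, from 0.00338 to 0.225 over the alternatives). The unnamed 1634633_s_at read 2.97, 5.04 and 5.25 on transgene discs and under 3 on all control discs (change 1.68, limma adjusted p = 0.0555, from 0.000404 to 0.196).

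Other members with measurable disc levels were not called over 12 arrays. CG15369 lay 1.35 lower (limma adjusted p = 0.61), PGRP-LF 0.64 higher, qtc 0.62 higher, CG4629 0.61 higher and CG8128 0.45 higher. Of these, CG4629 and CG8128 were called in the limma fit to 6 arrays (adjusted p = 0.0347 and 0.0194). Pdk read 9.27 ± 0.67 on control and 9.05 ± 0.16 on transgene discs, and CG6126 read 8.63 ± 0.35 and 9.10 ± 0.17. Of the transport members, ine lay 0.98 higher in transgene discs (limma adjusted p = 0.0969 over 12 arrays, 0.0311 over the 6 disc arrays and up to 0.312 in the alternatives). Rh50 lay 0.75 higher (limma adjusted p = 0.491, 0.019 and up to 0.976 in the same order). Both are near the lower limit of measurement on discs, at transgene means of 3.93 and 4.44. The disc arrays also differed in fat body signal: 7 of 10 fat body markers lay at least 1 higher on transgene disc 1 than on transgene discs 2 and 3. So did 7 members (8.97%), CG31775 and SPH93 among them, and 0.714% of all tested probe sets, with no such share computed for the other specific ones. Blood cell and muscle markers moved with the transgene. Of 10 tested hemocyte markers limma called 6 higher, in the fits to 12 and to 6 arrays, with a median change of 1.84, and their log2 sums were 10.20 to 10.92 on control and 11.47 to 12.07 on transgene discs. The muscle markers were summed to 16.48 to 16.95 and 17.00 to 17.29, with a median change of 0.61. The parts of fat body, blood cell and muscle RNA in the members' disc values were not tested.

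**Figure D5:**
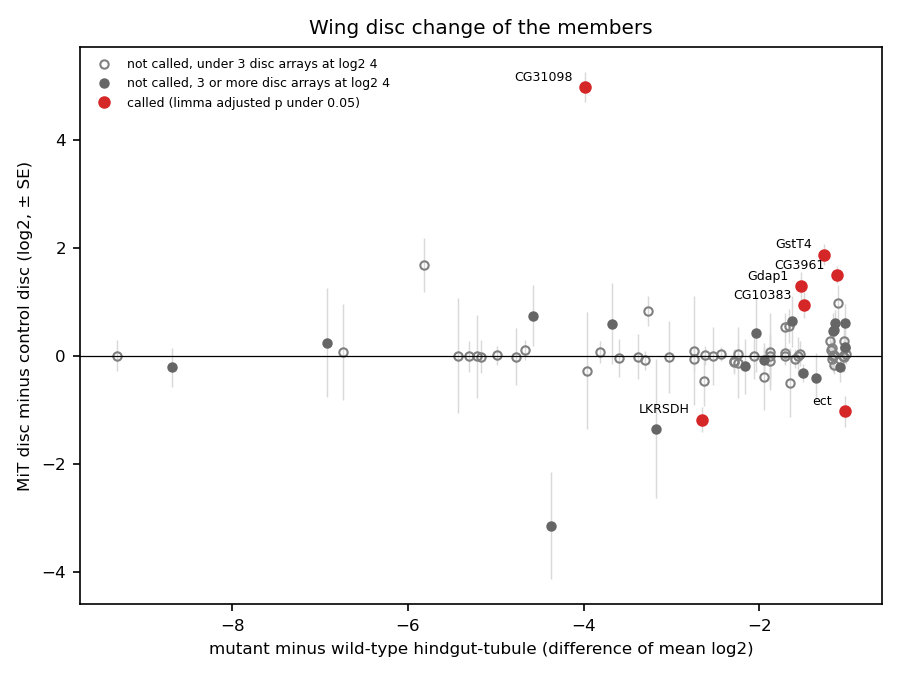
Change of each of the 78 members in transgene discs against control discs (log2, y axis, bars show the SE of the limma fit) against its difference between mutant and wild-type hindgut-tubule means (log2, x axis). Red points are the 7 members called by limma, with CG31098 at 4.98 the highest, and most of the others, open where fewer than 3 disc arrays reached a log2 value of 4, lie near 0.

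Replicate spread of the members was close to that of other tissue-specific probe sets. The median SD was 0.37 in wild type and 0.40 in the mutant, against 0.35 and 0.38 in the other hindgut-tubule specific probe sets. The condition on overlap left out probe sets with a wide spread for their fall, so this comparison depends on the rule. In 7 members the wild-type arrays spanned over 2, CG7953 the widest at 5.79, 11.27 and 6.82, and in 12 the mutant arrays did. Wild-type array 2 was at least 1 lower than the other wild-type arrays in 6 members (CG15201, AttA/AttB, AttD, CG33470/IM10, BaraA2 and PGRP-LF). It was at least 1 higher in 6 others (Rh50, CG31098, CG7953, CG7763, CG10184 and CG8128).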

How the data were processed

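The authors deposited log2 expression values. The submitters' processing notes name GCRMA, which corrects background and normalizes between arrays, with no version given there. Per the file headers, the authors' deposited table holds p-values, step-up adjusted p-values and signed fold changes (a score with no value between -1 and 1) of a one-way analysis of variance, and its adjusted p-values entered 1 alternative. Of 18952 probe sets, 183 controls were left out. Gene names came from the files' accessions and symbols through a RefSeq table of assembly Release 6, which gave 1 gene to 14521 probe sets, several to 263 and none to 3985.

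Groups and replicate numbers were taken from the sample titles. limma 3.58.1 in R 4.3.3 was fitted to all 12 arrays, 1 mean per group, on the 8678 probe sets at log2 4 or more on at least 3 arrays, with Benjamini-Hochberg adjustment over all of them and a threshold of 0.05 (8 residual and 2.08 prior degrees of freedom), and was tested on simulated data. There it made more false calls in the hindgut-tubule contrast than its threshold allows, so a fit to the 6 arrays of a tissue is given beside it. Every adjusted p is limma's. A mutant mean under log2 4 gives the fall as at least N-fold against that level. The number of arrays limits the precision.

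The members and gene lists were chosen with earlier results of these data known. Genes were named by rule: the 10 largest falls, members called in discs, up to 4 members of each list, the nearest to each threshold, the 5 highest in wild-type hindgut-tubule and in transgene discs, those with other probe sets and those next to another member. White, AttC, CecC, Drs, Mtk and other genes that are no members were named after their values were seen, as were some members. Hindgut-tubule arrays of the same number deviated together (correlations of 0.292, 0.378 and 0.142), though mutant array 3 and wild-type array 1 reached 0.336, so a fit with replicate number as a block was made as well.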

Additional observations from a re-analysis of the deposited data

How the results depend on the processing

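The number of members was 143 with a fall of at least 0.5 and 38 with a fall of at least 2, against 78, and between 76 and 119 with each array left out in turn, highest without mutant array 2. Of the 78, 67 were kept without wild-type array 1, 71 without wild-type array 2, 73 without wild-type array 3, and 70, 76 and 72 without mutant arrays 1, 2 and 3. After quantile normalization it was 83, with 74 shared, and after centring each array on its median 87, with 77 shared. Members called higher in discs numbered 5, against 10 in the fit to the 6 disc arrays, 3 in the authors' deposited table, and 3 to 5 with an array left out, lowest without transgene disc 3, and 4 among members measurable in discs. Members called lower numbered 2, against 1 after centring, with no filter on dim signal, with the replicate block and in the authors' deposited table, and 1 to 3 with an array left out, 1 without control disc 1 or 3 or transgene disc 2 or 3. The cause of these shifts was not tested. Over all tested probe sets, 702 were higher and 626 lower in the mutant. The fit to that tissue's 6 arrays gave 182 and 167. Leaving out an array gave 452 to 1126 higher, fewest without mutant array 3 and most without mutant array 2, and 451 to 733 lower. In discs, 619 were higher and 457 lower, against 1209 and 1395 in the fit to 6 arrays. With an array left out they numbered 409 to 500 and 221 to 314. Both fits to 6 arrays estimate the spread from fewer arrays, and their counts moved in opposite directions.

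With the replicate number as a block, for which the discs showed no pairing (correlations of 0.335, -0.05 and -0.18), 4 members were higher and 1 lower in discs. The block raised the oxidative phosphorylation genes called lower in the mutant from 28 to 41 of 61 tested, while limma over 6 arrays called 0 of them (33 passed 0.05 before adjustment). The planned count of promoter motifs was not run, since no promoter sequences were used here. Of the alternative values for the 7 members called in discs, 73 kept their direction and their side of the threshold and 18 lost the call (9 for CG10383, 8 for ect and 1 for Gdap1). What limits these data is the number of arrays, 3 a group, and the dim signal of most members in discs. A strain difference cannot be told apart from the genotype with these samples, and the parts of fat body RNA and of the immune signal of wild-type array 3 were not tested beyond the values given.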
